A study of Mus musculus with 55 samples.

Results

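Mature mouse forebrain neurons were depolarized with KCl for 15 min, and their RNA was compared with that of unstimulated neurons of the same age. The comparison used the 3 samples labelled 23DIV_KCl_15min and the 3 samples labelled 23DIV_Basal_0min of the experiment on neuronal maturation, 6 of the 55 samples of the series, and they were chosen by these labels alone. The series holds this maturation experiment, with 28 samples at 7DIV (days in vitro) and at 23DIV, and a separate stimuli experiment, with 27 samples at 21DIV. Mature cultures of both experiments are called 21DIV here. All cultures were made from cortex and hippocampus of CD1 mouse embryos of mixed sex at embryonic day 16 to 17.5, with no genotype other than CD1 given. Basal neurons received no drug, KCl was added to a final 55 mM, and no culture of these groups had been silenced beforehand. Set beside them were 3 samples after 180 min of KCl and 2 samples after 15 min of 4APBic (50 μM bicuculline, which blocks GABA-A receptors, with 2.5 mM 4-aminopyridine, which blocks potassium channels), all at 21DIV. Further comparisons used 7DIV neurons after 15 min of KCl (3 samples) or basal (3 samples), and 21DIV neurons of the stimuli experiment after 15 min of KCl (2 samples) or basal (3 samples). Each sample was RNA from a dissociated culture of mixed cell types, and the sources do not say whether replicates came from separate dissections, so p-values measure the spread between these samples only.

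Raised extracellular potassium depolarizes the neuronal membrane and opens voltage-gated calcium channels without needing synaptic transmission. Calcium then acts through calmodulin, its kinases, the phosphatase calcineurin and the Ras and MAP kinase pathway on transcription factors that are already present, such as CREB, SRF and MEF2. These switch on immediate early genes (IEGs) without new protein synthesis, many of which encode transcription factors or synaptic effectors, and a slower set of late response genes that includes neuropeptides and secreted proteins follows.

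The 6 samples held between 4030649 and 14012872 counts on genes. Values are given in CPM (counts relative to library size, with TMM library factors), and genes above 5 CPM in at least 2 samples of the experiment were tested. The correlation of log2 CPM between replicates (Pearson's r, across genes) lay between 0.960 and 0.978. Defining genes of neurons, astrocytes and the oligodendrocyte lineage were abundant, and those of microglia and vessels were nearly absent. Their sums are given with the cell type markers at the end. The samples of a group were not equally far from the other group. Basal replicate 1 was the basal sample nearest to the KCl samples for 272 of 377 genes that rose (72.2%) and for 298 of 355 genes that fell (83.9%). KCl replicate 3 was the KCl sample nearest to the basal samples for 187 of the rises (49.6%) and 191 of the falls (53.8%). Results that rest on single samples are therefore given also without them.

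KCl for 15 min raised AP-1 and other IEG transcription factors, rapid effector genes such as Gadd45g and Bdnf, and neuropeptide and secreted-protein genes. Lower in these KCl samples were 6 transducers of calcium signals to the nucleus, among them Camk4, and a set of genes with long spans. In the stimuli experiment no listed transducer fell, Camk4 rose, and genes that fell had shorter spans than those that rose. Of the genes that rose here, 17.03% rose and 8.38% fell there, and of those that fell here, 2.84% fell and 8.24% rose there. Among genes tested in both experiments, 4.68% rose and 2.81% fell there. Across these genes the fold changes of both experiments had a Pearson correlation of -0.0034. By edgeR's quasi-likelihood test, 732 of 11746 genes passed an adjusted p under 0.05 with at least a 1.5-fold change (6.23%). Of these, 377 rose (3.21%) and 355 fell (3.02%). Rises were larger than falls, with a median absolute log2 fold change of 1.03 against 0.87, and 36 genes rose but 7 fell by at least 4-fold. All 3 KCl samples lay on the same side of all 3 basal samples for 339 of the 377 rises and 312 of the 355 falls. Among all genes tested, 24.5% were separated in this way. The number of genes called depended on single samples. It was 1105 without basal replicate 1, 289 without basal replicate 2, 365 without basal replicate 3 and 457 without KCl replicate 1, and stayed within 1.5 times of 732 without KCl replicate 2 (563) or 3 (776).

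**Figure D1:**
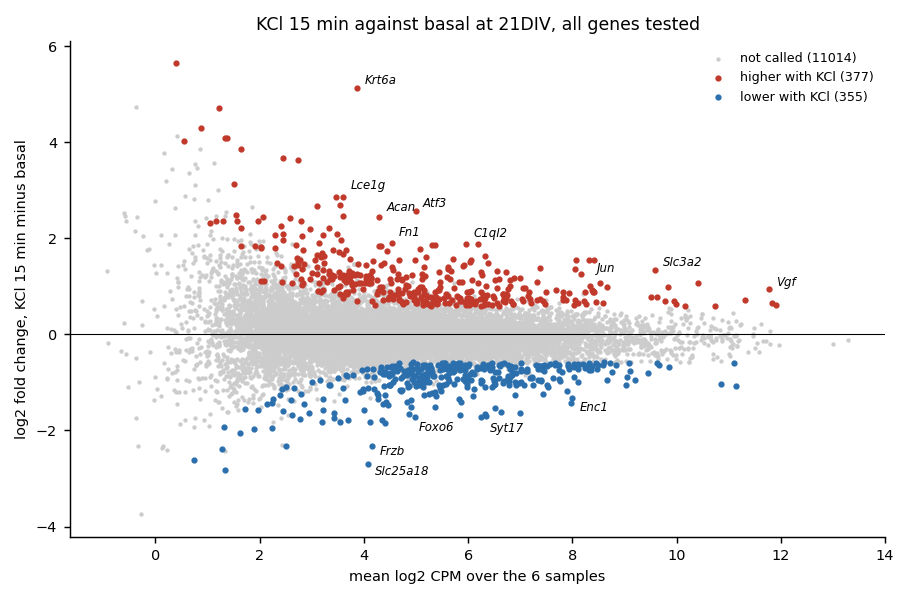
Change with 15 min of KCl at 21DIV for each of the 11746 genes tested, as log2 fold change (KCl minus basal, vertical axis) against mean log2 CPM over the 6 samples (horizontal axis). The 377 genes that rose are red, the 355 that fell are blue, and the rest are gray, and the rises reach larger sizes than the falls, with Krt6a highest among the named genes.

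Of 31 listed IEG transcription factors 27 were tested, and 10 of them rose while 2 fell and 15 were not called, against 3.21% and 3.02% of all genes tested that rose and fell. The median log2 fold change of the 27 was 0.59, and that of all genes tested was 0.00. Those that rose were, in order of their log2 fold change, Fosl1 (2.86), Atf3 (2.57), Maff (2.08), Nfil3 (1.60), Jun (1.55), Fosb (1.49), Fos (1.34), Npas4 (1.09), Fosl2 (1.08) and Junb (0.68). Egr3 and Srf fell. The counts moved to between 5 and 9 rises and between 0 and 2 falls when 1 of the 6 samples was left out, with 5 rises without basal replicate 2 or KCl replicate 2 and 6 without KCl replicate 1.

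The promoters of the factors with the largest rises are shown because the listed motifs in them are the sites through which CREB, AP-1, EGR and SRF proteins are known to act. RefSeq (GRCm38.p6, the build of mm10) gave an entry for Atf3, Maff and Nfil3, and none was used for Fosl1 and Arc. Each sequence runs 5′ to 3′ on the strand of its gene, from 250 bases before the annotated start to 50 after it, and motif matches on either strand are in capitals.
Atf3, chr1:191183284-191183583, minus strand: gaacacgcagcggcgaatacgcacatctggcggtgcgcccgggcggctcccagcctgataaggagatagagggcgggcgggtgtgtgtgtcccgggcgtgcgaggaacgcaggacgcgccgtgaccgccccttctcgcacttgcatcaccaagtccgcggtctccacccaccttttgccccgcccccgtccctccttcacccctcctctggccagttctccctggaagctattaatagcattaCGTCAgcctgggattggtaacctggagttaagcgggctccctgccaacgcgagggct
Maff, chr15:79346371-79346670, plus strand: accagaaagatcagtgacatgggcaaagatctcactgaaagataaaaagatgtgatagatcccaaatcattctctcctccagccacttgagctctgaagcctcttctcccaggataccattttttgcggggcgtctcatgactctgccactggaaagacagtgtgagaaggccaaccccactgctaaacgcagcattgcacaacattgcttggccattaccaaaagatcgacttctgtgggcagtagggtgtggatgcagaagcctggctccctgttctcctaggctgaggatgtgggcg
Nfil3, chr13:52980990-52981289, minus strand: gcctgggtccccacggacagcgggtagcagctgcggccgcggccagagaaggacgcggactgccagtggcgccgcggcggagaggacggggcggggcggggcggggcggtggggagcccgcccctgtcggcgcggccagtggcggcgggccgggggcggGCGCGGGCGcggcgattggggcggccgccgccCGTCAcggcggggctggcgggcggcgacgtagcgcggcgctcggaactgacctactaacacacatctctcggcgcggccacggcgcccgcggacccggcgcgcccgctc

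The motifs searched were the full cAMP response element (CRE, TGACGTCA), its short form TGACG, the AP-1 site TGANTCA, the EGR site GCGNGGGCG and the CArG box of SRF, on both strands, and every full CRE also holds the short form. Atf3 held the short CRE on the minus strand from 7 to 3 bases before its start. Nfil3 held the short CRE from 59 to 55 bases before its start and an EGR site from 91 to 83 bases before it. In the entry printed for Maff none of these letters was found. Of all 32851 promoters in the table, 20.8% held the short CRE, 1.79% the full CRE, 7.81% an AP-1 site, 5.55% an EGR site and 1.63% a CArG box. Of the 9379 promoters of tested genes, 33.2% held the short CRE, 3.58% the full CRE, 4.35% an AP-1 site, 11.45% an EGR site and 1.27% a CArG box.

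Subunits of AP-1, the dimer of Fos and Jun family proteins, gave most of the rises among IEG transcription factors. Fos (chromosome 12, 85473890 to 85477274 of GRCm38, the build of all positions given) had 21.6, 11.3 and 12.1 CPM in basal replicates 1 to 3 and 43.2, 42.9 and 26.5 CPM with KCl. All KCl samples lay above all basal samples, with basal replicate 1 highest among the basal and KCl replicate 3 lowest among the KCl samples. Its log2 fold change was 1.34 (SE, the standard error, 0.29, adjusted p = 0.00385). Jun (chromosome 4, 95049036 to 95052222) had 223, 159 and 196 CPM in basal samples and 409, 841 and 449 CPM with KCl, so that KCl replicate 2 stood far above the other 2. Jun changed by 1.55 on the log2 scale (SE 0.23, adjusted p = 0.000117), and by 1.15 without KCl replicate 2. Fosb went from 13.8, 9.66 and 13.9 CPM to 38.1, 45.8 and 22.4 CPM. Its groups did not overlap, and its log2 fold change was 1.49 (SE 0.37, adjusted p = 0.0116).

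Other factors of the list belong to further families. Atf3, a stress-induced member of the ATF and CREB family (chromosome 1, 191170296 to 191183333), had 25.8, 5.54 and 14.9 CPM in basal samples and 121, 128 and 26.9 CPM with KCl. KCl replicate 3 lay just above the highest basal sample, and the log2 fold change was 2.57 (SE 0.51, adjusted p = 0.00173). Nfil3, a basic leucine zipper repressor, had 23.3, 14.7 and 26.3 CPM against 75.3, 84.8 and 37.2 CPM. Its groups were separate, and it rose by 1.60 (SE 0.33, adjusted p = 0.0023). Maff, a small Maf protein, was low, with 5.36, 0.894 and 1.11 CPM against 11.7, 9.29 and 8.72 CPM. For Fosl1 only KCl replicates 1 and 2, with 39.7 and 56.7 CPM, were high, while KCl replicate 3 had 5.34 CPM, within the basal range from 3.43 to 5.71 CPM. Npas4, a neuronal activity-dependent factor, also overlapped, with 106, 63.3 and 177 CPM in basal samples and 265, 311 and 165 CPM with KCl.

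Not every IEG factor rose. Egr3, a zinc finger factor of the EGR family, had 23.2, 46.3 and 46.2 CPM in basal samples and 17.1, 19.3 and 15.8 CPM with KCl. All KCl samples were below all basal samples, and the log2 fold change was -1.15 (SE 0.34, adjusted p = 0.0316). Srf, which binds the CArG box, fell from 92.8, 136 and 141 CPM to 61.4, 82.9 and 52.7 CPM, a log2 fold change of -0.92 (SE 0.26, adjusted p = 0.0238). Egr1, the family's best known IEG, had 51.2, 48.6 and 55.7 CPM in basal samples and 68.4, 86.5 and 88.1 CPM with KCl. Its groups were separate, but its log2 fold change of 0.64 (SE 0.21) missed the threshold (adjusted p = 0.0622). The orphan nuclear receptor gene Nr4a1 had overlapping groups, from 27.3 to 37.1 CPM basal and from 25.5 to 48.9 CPM with KCl. Fos, Jun, Atf3, Nfil3 and Maff passed whichever of the 6 samples was left out. The calls of Fosb, Fosl1, Fosl2, Junb, Npas4, Egr3 and Srf were each lost without basal replicate 2. Those of Fosl1, Fosl2, Junb, Egr3 and Srf were lost also without basal replicate 3, those of Fosl1, Fosl2, Junb, Npas4, Egr3 and Srf without KCl replicate 1, and those of Fosb, Fosl1, Fosl2, Junb, Npas4 and Egr3 without KCl replicate 2. Npas4 was lost also without basal replicate 1, and Junb, Egr3 and Srf without KCl replicate 3. Maff was 3.25 without basal replicate 1. When the counts of all transcripts of a gene were summed, Egr3, Srf, Fosl1, Fosl2, Junb and Npas4 were not called.

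**Figure D2:**
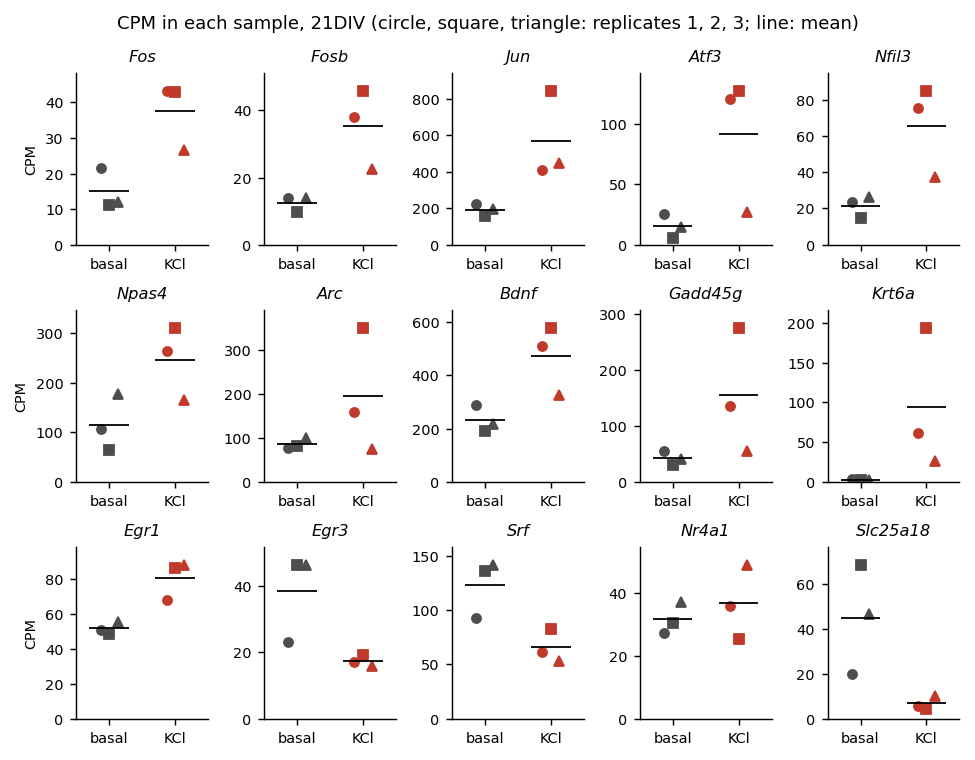
CPM of 15 genes in each of the 3 basal and 3 KCl samples at 21DIV, with replicates 1, 2 and 3 as circle, square and triangle and a line at the mean of each group. Fos, Fosb, Jun, Atf3, Nfil3, Bdnf, Gadd45g, Krt6a and Egr1 are higher in every KCl sample, Egr3, Srf and Slc25a18 are lower in every KCl sample, and the groups overlap for Npas4, Arc and Nr4a1.

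Rapid effector genes, the IEGs that encode enzymes, signaling and synaptic proteins, rose in 8 of 28 tested members and fell in none, against 3.21% and 3.02% of all genes tested, with a median log2 fold change of 0.61. Gadd45g, a growth arrest and DNA damage response gene, had 54.1, 30.8 and 40.9 CPM in basal samples and 135, 274 and 55.0 CPM with KCl. KCl replicate 3 lay only just above basal replicate 1, and the log2 fold change of 1.87 (SE 0.34, adjusted p = 0.000701) was 1.19 without KCl replicate 2. Ppp1r15a, a regulatory subunit of protein phosphatase 1 that acts on eIF2α, went from 70.7, 32.5 and 49.7 CPM to 145, 156 and 126 CPM. The groups were far apart, with a log2 fold change of 1.48 (SE 0.20, adjusted p = 3.6e-05). The neurotrophin gene Bdnf (chromosome 2, 109674700 to 109727043) had 290, 193 and 216 CPM in basal samples and 511, 578 and 325 CPM with KCl. Every KCl sample was above every basal sample, and Bdnf rose by 1.02 (SE 0.23, adjusted p = 0.0044).

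Arc, a synaptic protein gene that is a standard marker of neuronal activity (chromosome 15, 74669081 to 74672570), was less clear. Its basal samples had 75.7, 80.7 and 98.8 CPM and its KCl samples 159, 349 and 75.3 CPM. KCl replicate 3 was below all basal samples, so that the groups overlapped although the log2 fold change of 1.18 passed (SE 0.32, adjusted p = 0.0208). Without KCl replicate 2 it was 0.46, and the call was lost also without each of the basal samples, with the replicate number as a block (log2 fold change 1.07, adjusted p = 0.0541), with DESeq2, with summed transcripts and in the fits of fewer samples. The prostaglandin synthase gene Ptgs2 (1.32), the kinase gene Sgk1 (1.31), the G protein regulator Rgs2 (1.25) and the early response gene Ier3 (1.09) were the other members that rose, and each was higher in all KCl samples. Bdnf lost its call without basal replicate 2, and Ptgs2 without basal replicate 1, basal replicate 2 or KCl replicate 3. Homer1, whose short isoform is an IEG, had a log2 fold change of -0.39 (SE 0.18, adjusted p = 0.187).

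Late response and neuropeptide genes rose in 9 of 20 members and fell in none, against 3.21% and 3.02% of all genes tested, with a median log2 fold change of 0.47. Inhba, the βA subunit of activin, had 6.22, 3.40 and 2.10 CPM in basal samples and 10.7, 56.5 and 8.90 CPM with KCl. KCl replicate 2 stood apart, and the log2 fold change of 2.68 (SE 0.61, adjusted p = 0.00553) was 1.37 and no longer called without it. Adcyap1, which encodes the neuropeptide PACAP, went from 54.8, 27 and 30.4 CPM to 106, 95.1 and 101 CPM, a log2 fold change of 1.44 (SE 0.30, adjusted p = 0.00314). Nptx2, a neuronal pentraxin that clusters AMPA receptors, had 105, 102 and 113 CPM against 332, 363 and 143 CPM. All its KCl samples were above the basal samples, and it rose by 1.39 (SE 0.26, adjusted p = 0.00101). Among the most abundant genes, the granin Vgf (0.94) and Scg2 (0.98), both precursors of secreted peptides, rose in every KCl sample and under every sample left out. Vgf had 3386, 2064 and 2221 CPM in basal samples and 5630, 4521 and 4561 CPM with KCl. Pthlh (1.36), Gpr3 (1.15), Sorcs3 (0.77) and the prohormone convertase Pcsk1 (0.70) also passed. Gpr3 and Pcsk1 lost their calls without basal replicate 2 or 3 or KCl replicate 1 or 2, Pthlh without basal replicate 2 or 3 or KCl replicate 1, Sorcs3 without basal replicate 1 or 3 or KCl replicate 2, and Inhba also without basal replicate 3. The neuropeptide genes Sst (-0.04), Npy (0.02), Cck (-0.14), Tac1 (0.18), Penk (0.20), Cort (0.03) and Crh (-0.42) were not called. In the stimuli experiment 8 of the 20 rose, Inhba, Nptx2, Gpr3, Sorcs3 and Pcsk1 among them, and none fell. Vgf, Scg2, Adcyap1 and Pthlh were not called there. Of all genes tested there 4.52% rose and 2.69% fell.

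Of 36 tested transducers of calcium signals to the nucleus none rose, 6 fell and 30 were not called, against 3.21% of all genes tested that rose and 3.02% that fell. Their median log2 fold change was -0.37, and 5 of the 36 had a value above 0. Camk2a, among the 6, is also in the list of excitatory and pan-neuronal markers, whose median was -0.41, and the part of that shift was not tested. Camk4, the nuclear calmodulin kinase that phosphorylates CREB, had 86.3, 147 and 124 CPM in basal samples and 61.6, 47.2 and 57.8 CPM with KCl. Every KCl sample was lower, with a log2 fold change of -1.09 (SE 0.19, adjusted p = 0.000524). Its activating kinase Camkk2 went from 212, 357 and 365 CPM to 187, 147 and 139 CPM, a log2 fold change of -0.98 (SE 0.17, adjusted p = 0.000534). Ppp3ca, a catalytic subunit of calcineurin, went from 587, 762 and 826 CPM to 377, 423 and 476 CPM, a log2 fold change of -0.77 (SE 0.13, adjusted p = 0.000538). For Camkk2 and Ppp3ca too the groups were separate, with basal replicate 1 lowest of the basal samples. Camk2a (-1.06), the CREB-binding coactivator Crebbp (-0.82) and Camk2g (-0.60) fell as well, and their calls were lost without basal replicate 2, basal replicate 3, KCl replicate 1 or KCl replicate 2, and that of Camk2g also without KCl replicate 3. The list had between 3 and 7 falls over the fits that left out 1 sample, with 3 without basal replicate 2, basal replicate 3 or KCl replicate 1 and 4 without KCl replicate 2. In the stimuli experiment, at the same dose and time, 1 of 36 tested members rose, Camk4 (0.68), and none fell. The median there was 0.09, and of all genes tested there 4.52% rose and 2.69% fell.

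In the remaining lists, between 1 and 3 genes each were called, against 6.23% of all genes tested. Among feedback inhibitors of these pathways, such as MAP kinase phosphatases and Sprouty proteins, 1 of 20 tested rose, the kinase gene Sik2 (0.85), and the median was 0.18. Dusp1, a MAP kinase phosphatase, had 25.9, 24.1 and 30.6 CPM in basal samples and 51.1, 43.4 and 53.7 CPM with KCl. Its groups were separate, but it missed the threshold (log2 fold change 0.87, SE 0.28, adjusted p = 0.052). Of 10 heat shock chaperone genes 2 rose, Hspa1a (1.49) and the endoplasmic reticulum chaperone Hspa5 (0.72), and Hspa1a has a near-identical copy, Hspa1b (0.23), with which reads may be exchanged. Of 11 Notch targets and ID factors 1 fell, Id3 (-1.37). Sik2, Hspa1a, Hspa5 and Id3 lost their calls without basal replicate 2 or 3 or KCl replicate 1 or 2, Sik2 also without basal replicate 1 and Id3 also without KCl replicate 3. Of 60 genes with symbols of cytosolic ribosomal proteins 2 rose, Rps27l (0.73) and Rpl22l1 (0.63), and 1 fell, Rpl5 (-0.87), with a median of 0.17. The symbols took in also the binding protein gene Rps19bp1 and the pseudogenes Rpl14-ps1 and Rpl17-ps8. None of the 60 was called without basal replicate 2. In the stimuli experiment 8 of 22 tested feedback inhibitors rose, Sik2 and Dusp1 among them, and none fell. Their median there was 0.60, and of all genes tested there 4.52% rose and 2.69% fell.

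**Figure D3:**
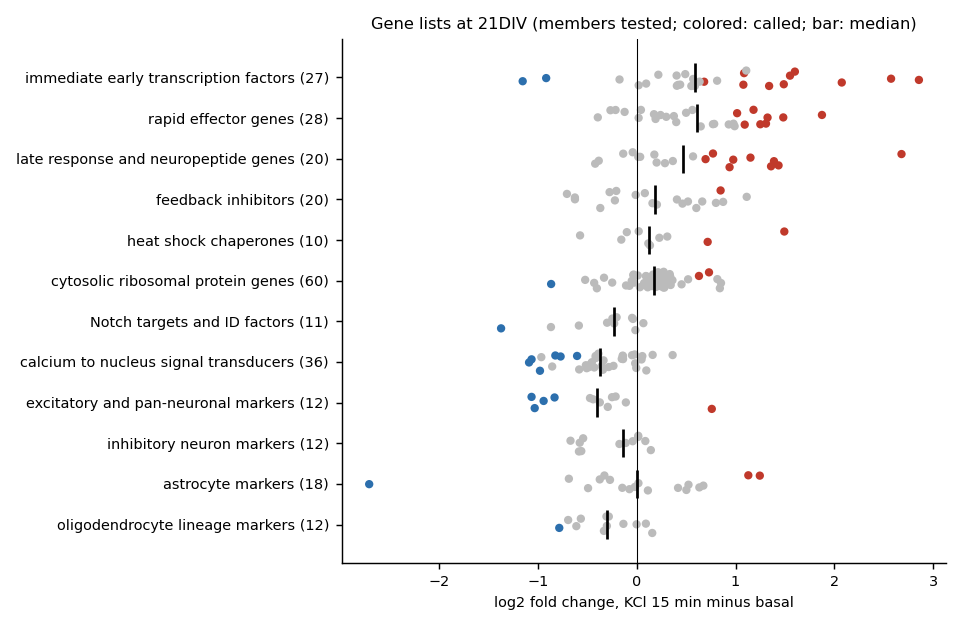
Log2 fold change (KCl 15 min minus basal) of each tested member of 12 gene lists at 21DIV, with the number tested in brackets, genes that rose in red, genes that fell in blue and the median as a bar. The medians of IEG transcription factors (0.59), rapid effector genes (0.61) and late response genes (0.47) lie to the right of 0, and those of calcium transducers (-0.37) and neuronal markers (-0.41) to the left.

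Keratin, aggrecan and fibronectin genes were among the largest rises outside these lists. Among called genes with a mean log2 CPM of at least 3 and separate groups, Krt6a, a keratin gene (chromosome 15, 101689928 to 101694305), rose most. It had 3.29, 2.50 and 2.21 CPM in basal samples and 61.2, 194 and 26.3 CPM with KCl. The KCl samples differed among themselves, but the lowest was far above every basal sample, and the 34.95-fold rise became a log2 fold change of 4.05 in place of 5.13 without KCl replicate 2 (adjusted p with all samples 1.88e-06). Counting may have split reads between Krt6a and related keratins. Acan, which encodes aggrecan of the perineuronal net, had 14.9, 5.54 and 6.42 CPM against 55.0, 67.2 and 23.3 CPM. All KCl samples were higher, and the log2 fold change was 2.45 (SE 0.44, adjusted p = 0.000682). Kdelr3, a receptor that returns proteins to the endoplasmic reticulum, had 5.88, 2.50 and 6.75 CPM against 21.6, 29.1 and 35.05 CPM (log2 fold change 2.46). Fibronectin, Fn1, had 19.4, 8.23 and 9.07 CPM against 49.6, 46.7 and 39.1 CPM (log2 fold change 1.90). Both were clearly separate between groups in every sample. Genes below that level had larger rises too, such as Crct1 with 4.71, which was picked out after the values were seen.

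Smaller or less even rises completed this set. They were those of Lce1g (2.87), a cornified envelope gene with near-identical neighbors, the PDZ and LIM domain gene Pdlim1 (2.21), the homeobox repressor Tgif1 (2.09), the integrin gene Itga7 (2.07), the F-box gene Fbxo36 (1.97) and the CART neuropeptide gene Cartpt (1.89). Lce1g lost its call without basal replicate 2 or 3 or KCl replicate 2, Tgif1 without basal replicate 2 or 3, and Fbxo36 without basal replicate 2 or KCl replicate 3. Cartpt was 1.13 without KCl replicate 2, and Tgif1 and Lce1g were 3.19 and 3.96 without basal replicate 1.

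The rises with the lowest p were smaller and more even. Fam162a, a mitochondrial protein gene known to respond to low oxygen (chromosome 16, 36043844 to 36071561), had 194, 122 and 185 CPM in basal samples and 419, 389 and 476 CPM with KCl. The lowest KCl sample was far above the highest basal sample, and the log2 fold change was 1.36 (SE 0.15, adjusted p = 1.88e-06). Slc3a2, the heavy chain of several amino acid transporters, had 522, 412 and 530 CPM against 1369, 1349 and 996 CPM, a log2 fold change of 1.34 (SE 0.16, adjusted p = 1.42e-05). The synaptic C1q-like gene C1ql2 had 54.6, 24.7 and 21.7 CPM against 127, 125 and 119 CPM, a log2 fold change of 1.89 (SE 0.25, adjusted p = 3.6e-05). Its KCl samples were alike, and basal replicate 1 was the highest of the basal samples. The mitochondrial citrate carrier Slc25a1 rose by 0.91 (SE 0.12, adjusted p = 3.6e-05). These 4 genes and Krt6a passed whichever of the 6 samples was left out. Of them only Krt6a was also called in the stimuli experiment. Fam162a had a log2 fold change of -0.085 there and Slc3a2 one of 0.15, and neither passed.

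The largest falls were in a mitochondrial carrier, signaling genes and a potassium channel. Slc25a18, a mitochondrial glutamate carrier that is strong in astrocytes, had 19.7, 68.3 and 46.8 CPM in basal samples and 5.88, 4.53 and 10.1 CPM with KCl. All KCl samples were below all basal samples, and the 6.53-fold fall passed whichever sample was left out (log2 fold change -2.71, SE 0.58, adjusted p = 0.00363). Frzb, a secreted Wnt antagonist (chromosome 2, 80411970 to 80447396), had 21.3, 48.6 and 54.8 CPM against 10.8, 5.72 and 7.47 CPM, a log2 fold change of -2.32 (SE 0.40, adjusted p = 0.000538). Wnt4, a Wnt ligand, had 41.8, 38.3 and 35.2 CPM against 8.43, 6.91 and 18.3 CPM, a log2 fold change of -1.78. The leak potassium channel Kcnk9 had 22.6, 25.04 and 15.4 CPM against 5.23, 7.39 and 5.34 CPM, a log2 fold change of -1.83. Wnt4 and Kcnk9 were evenly high in the basal samples, whereas Slc25a18 and Frzb were lowest there in basal replicate 1.

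Other large falls were those of Rasgrf2 (-1.85), a calcium-dependent activator of Ras, Fam13b (-1.83), the hair keratin gene Krt73 (-1.82), the histone gene H3c15 (-1.78), which has near-identical copies, the orphan receptor gene Gpr12 (-1.73), the synaptotagmin gene Syt17 (-1.73), Ypel1 (-1.73) and the transglutaminase gene Tgm3 (-1.70). Krt73 was called in 1 of the 6 fits that left out a sample, without basal replicate 1, Gpr12 was not called without basal replicate 2 or KCl replicate 2, and Tgm3 was not called without basal replicate 2. The falls with the lowest p were even. Enc1, an actin-binding kelch protein of neurons (chromosome 13, 97241105 to 97253040), had 304, 462 and 463 CPM in basal samples and 149, 140 and 200 CPM with KCl. The groups were far apart, with a log2 fold change of -1.33 (SE 0.17, adjusted p = 3.6e-05). Foxo6, a forkhead factor, had 82.1, 120 and 103 CPM against 29.6, 35.03 and 31.7 CPM, a log2 fold change of -1.67 (SE 0.22, adjusted p = 3.6e-05). Cdk14 (-1.24), the long noncoding RNA Miat (-1.05) and Gprin1 (-0.89) were the other 3, and all 5 passed whichever sample was left out. In the stimuli experiment none of them was called lower, and Foxo6 rose (0.85).

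Genes that fell at 15 min had longer spans than those that rose. The median span from start to end of the annotated gene was 45.4 kb for the 355 falls, 17.5 kb for the 377 rises and 25.4 kb for all genes tested. Genes over 100 kb made up 114 of the falls (32.1%), 34 of the rises (9.02%) and 15.8% of all genes tested. Rises were called for 4.49% of genes under 10 kb and 1.83% of genes over 100 kb, and falls for 2.47% and 6.13%. The share of CPM on genes over 100 kb was 16.3%, 18.6% and 17.2% in basal samples and 15.2%, 16.0% and 16.3% with KCl. The KCl samples were the 3 lowest, although KCl replicate 3 and basal replicate 1 were nearly equal. Over all alternatives in the processing the median span lay between 28.96 kb, without KCl replicate 1, and 55.1 kb for falls and between 15.4 and 17.96 kb for rises. The 27 tested IEG transcription factors had a median span of 8.91 kb. In the stimuli experiment, which shares no sample, the order was the opposite, with a median of 32.8 kb for rises and 22.02 kb for falls after 15 min of KCl. After 180 min of KCl, against the same basal samples, the medians were 18.6 kb for rises and 19.15 kb for falls, both below that of all genes tested. RNA quality was not among the values used, and its part in the span of the falls was not tested.

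**Figure D4:**
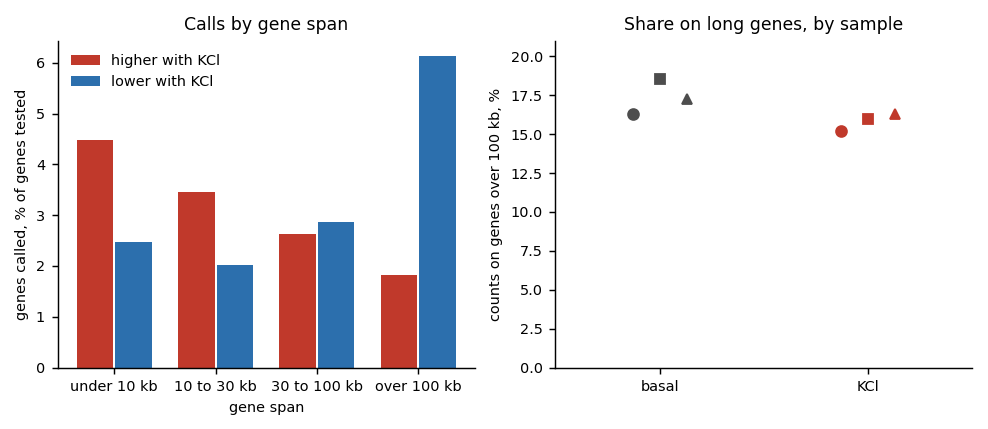
Left, the percentage of tested genes called higher (red) or lower (blue) with 15 min of KCl at 21DIV in 4 ranges of gene span. Right, the percentage of CPM on genes over 100 kb in each of the 3 basal and 3 KCl samples (circle, square and triangle for replicates 1, 2 and 3), where basal samples range from 16.3 to 18.6% and KCl samples from 15.2 to 16.3%.

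Whether the 15 min response differed between developmental stages was tested with the difference of the KCl effects at 21DIV and 7DIV, which uses separate basal samples. At 7DIV 0 of 11746 genes passed with 15 min of KCl (0.0%) by the quasi-likelihood test, with 659 genes at an unadjusted p under 0.05, 5 calls by edgeR's likelihood ratio test and 3 by DESeq2. The difference itself passed an adjusted p under 0.05 for 238 genes (2.03%), 101 higher and 137 lower at 21DIV. Of the 21DIV samples, the count was 567 without basal replicate 1, 64 without basal replicate 2, 94 without basal replicate 3, 157 without KCl replicate 1 and 146 without KCl replicate 2. Of the 7DIV samples, it was 125 without basal replicate 2 and 103, 149 and 148 without KCl replicates 1, 2 and 3. Of 73 genes named here from the lists or by rule, 35 passed, but all 73 were called at 21DIV, and that change is part of this difference, so that the share is no independent evidence. The 377 genes that rose at 21DIV had a median log2 fold change of -0.05 at 7DIV, and the 355 that fell one of 0.06.

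Individual genes show the contrast between stages. At 7DIV Fos had 64.4, 71.2 and 77.2 CPM in basal samples and 57.7, 71.3 and 49.4 CPM with KCl, so that all were above the KCl samples of 21DIV. The stage difference in its KCl effect was 1.58 on the log2 scale (SE 0.40, adjusted p = 0.0333). Fosb at 7DIV had 175, 57.7 and 46.9 CPM basal and 47.3, 50.0 and 34.1 CPM with KCl, and its difference was 2.54 (SE 0.52, adjusted p = 0.00875). Jun at 7DIV overlapped between groups, with 184, 134 and 198 CPM basal and 170, 126 and 145 CPM with KCl, and its difference was 1.79 (SE 0.33, adjusted p = 0.00418). Enc1 went from 389, 437 and 427 CPM to 508, 491 and 493 CPM at 7DIV, the opposite order to that at 21DIV, and its difference was -1.59 (SE 0.24, adjusted p = 0.00199). The largest differences among genes called at 21DIV were those of Krt6a (5.53), Nupr1 (3.71) and Ttr (3.69) upward and Slc25a18 (-3.1), Frzb (-2.64) and Wnt4 (-2.60) downward. Of these, Nupr1, Frzb and Wnt4 passed, with an adjusted p of 0.0296, 0.018 and 0.0104. Krt6a, Slc25a18 and Ttr had an adjusted p of 0.19, 0.122 and 0.0591, and Krt6a had at most 1.02 CPM in any of these 7DIV samples.

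After 180 min of KCl at 21DIV, 574 genes differed from the same basal samples (4.89%), 350 upward and 224 downward. The direct comparison of 180 with 15 min called 106 genes (0.902%), 76 higher and 30 lower at 180 min. The count was 25 without KCl 15 min replicate 1, 259 without KCl 15 min replicate 3, 67 and 53 without KCl 180 min replicates 1 and 2, and 5 in a fit of the 6 compared samples alone. Fos, Npas4 and Junb rose further. Fos had 72.2, 194 and 223 CPM at 180 min, all above its 15 min samples, and was 2.11 higher on the log2 scale (SE 0.27, adjusted p = 2.55e-05). Npas4 had 400, 1045 and 983 CPM (difference 1.71, adjusted p = 0.00367) and Junb 75.9, 126 and 137 CPM (difference 1.67, adjusted p = 2.13e-05), each above all 15 min samples. Krt6a went back to 10.1, 10.8 and 34.2 CPM, lower than at 15 min by 2.35 on the log2 scale in the fit (adjusted p = 0.00813), with its highest sample above the lowest at 15 min. Fndc9 had a difference of -1.40 that did not pass (adjusted p = 0.0858). Nptx2 was also lower again, with 70.1, 91.5 and 185 CPM at 180 min (difference -1.28, adjusted p = 0.0118). Srf, lower at 15 min, had 146, 138 and 98.6 CPM at 180 min, close to its basal values, but the difference from 15 min did not pass (0.97, SE 0.26, adjusted p = 0.0619). Krt6a, Fndc9, Nptx2 and Srf had been called at 15 min from the same KCl samples. Their shift back toward basal values is therefore no independent evidence.

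The transthyretin gene Ttr rests on a single sample. It had 2.08, 7.15 and 12.6 CPM in basal samples, 11.6, 5.72 and 132 CPM after 15 min and at most 0.559 CPM after 180 min. The log2 fold change at 15 min of 2.70 (adjusted p = 0.022) was 0.27 and not called without KCl replicate 3, the call was lost also without basal replicate 1 or 2, and the Ttr differences from 7DIV, 180 min and 4APBic involve the same sample.

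Against 4APBic for the same 15 min, KCl gave different values for 642 genes (5.47%), 287 higher and 355 lower with KCl. This comparison uses 2 samples of 4APBic and no basal sample, and the count was 132 without 4APBic replicate 1, 410 without 4APBic replicate 2 and 410 without KCl replicate 1. With 1 sample of 4APBic left, that sample was assumed to vary like the other groups. 4APBic itself called 6 genes against the basal samples (0.0511%), all of them higher, with 621 genes at an unadjusted p under 0.05, 9 calls by edgeR's likelihood ratio test and 6 by DESeq2. The doses of KCl and 4APBic are of different agents and cannot be matched. Arc had 374 and 298 CPM with 4APBic, against 159, 349 and 75.3 CPM with KCl, and Fos had 53.7 and 65.6 CPM against 43.2, 42.9 and 26.5 CPM. Neither difference passed, at -0.79 for Arc (SE 0.35, adjusted p = 0.19) and -0.67 for Fos (SE 0.32, adjusted p = 0.217). Junb, with 98.8 and 83.5 CPM with 4APBic, was lower with KCl by 1.36 on the log2 scale in the fit (SE 0.24, adjusted p = 0.000883). Ppp1r15a, with 55.4 and 35.4 CPM with 4APBic, lay within its basal range there and was higher with KCl by 1.68 (SE 0.25, adjusted p = 0.000268). The largest differences among genes called at 15 min were upward with KCl for Ttr (6.75), Krt6a (4.69) and Fosl1 (3.87) and downward for Gpr12 (-2.92), Frzb (-2.44) and Slc25a18 (-2.40), all past the threshold. The same KCl samples had given their calls against basal, so that their passing is no independent evidence.

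The stimuli experiment tested the same dose and time of KCl in other samples at the same stage. There 868 of 12027 genes passed (7.22%), 544 upward (4.52%) and 324 downward (2.69%), and 340 passed without KCl replicate 2 of that experiment, where the remaining KCl sample was assumed to vary like the other groups. Of the 377 rises of the maturation experiment 370 were tested there, and 63 rose (17.03%) while 31 fell (8.38%). Among the 11289 genes tested in both experiments, 4.68% rose and 2.81% fell in the stimuli experiment. Of the 355 falls 352 were tested there, and 10 fell (2.84%) while 29 rose (8.24%). Read from the other list, 63 of the 528 tested rises of the stimuli experiment rose here (11.9%) and 29 fell (5.49%). The median log2 fold change in the stimuli experiment was 0.03 for the rises and 0.09 for the falls found here, and across the 11289 genes the fold changes of both experiments had a Pearson correlation of -0.0034. The share of rises that also rose there was between 9.92%, without KCl replicate 2, and 22.4%, without basal replicate 2, over the alternatives in the processing. Without KCl replicate 2 the share that fell there was 10.69%, above the 9.92% that rose.

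The 63 genes that rose in both experiments held many of the activity-regulated genes named above. They included Fos, Fosb, Fosl2, Junb, Npas4, Atf3 and Nfil3, the effectors Arc, Gadd45g, Ptgs2, Sgk1, Rgs2 and Bdnf, and Inhba, Nptx2, Acan, Cartpt and Krt6a. Arc had 25.5, 35.7 and 32.2 CPM in basal samples of the stimuli experiment and 325 and 399 CPM with KCl, a clear separation that gave a log2 fold change of 3.55 (SE 0.17) against 1.18 here. Nptx2 had 78.2, 147 and 80.7 CPM against 683 and 674 CPM there, a log2 fold change of 2.74 against 1.39 here. Krt6a had 10.9, 16.8 and 11.8 CPM against 435 and 464 CPM, and its log2 fold change of 5.11 was close to the 5.13 found here. Jun did not pass there, with 329, 322 and 402 CPM basal and 385 and 431 CPM with KCl. Its basal values in the stimuli experiment were above its basal values here.

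Some genes moved in opposite directions in the experiments. Egr3 had 13.2, 11.5 and 7.20 CPM in basal samples of the stimuli experiment and 48.4 and 52.7 CPM with KCl, a log2 fold change of 2.22 (SE 0.28, adjusted p = 4.76e-07) against -1.15 here. The experiments were normalized separately, and on these scales its KCl samples there lay just above the highest basal sample here and its basal samples there below every sample here. Srf had 33.5, 27.9 and 38.7 CPM against 58.5 and 74.2 CPM, a log2 fold change of 1.00 against -0.92 here. Foxo6 had 24.6, 31.6 and 17.4 CPM against 46.3 and 42.4 CPM, a log2 fold change of 0.85 against -1.67 here. Slc25a18 had 2.01, 8.56 and 2.65 CPM against 17.1 and 21.8 CPM, a log2 fold change of 2.19 against -2.71 here. For all 4 genes the basal values of the maturation experiment were higher than those of the stimuli experiment in every sample. Ppp1r15a went the other way, with 64.8, 60.3 and 52.3 CPM basal and 29.7 and 36.5 CPM with KCl there, a log2 fold change of -0.83 against 1.48 here. The 10 genes that fell in both were Synm, Cdkl2, D430019H16Rik, Nr1d2, Vps50, Klhl24, Ulk2, Crbn, Pkia and Pdcd4, the whole of that set, named after their values were seen.

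**Figure D5:**
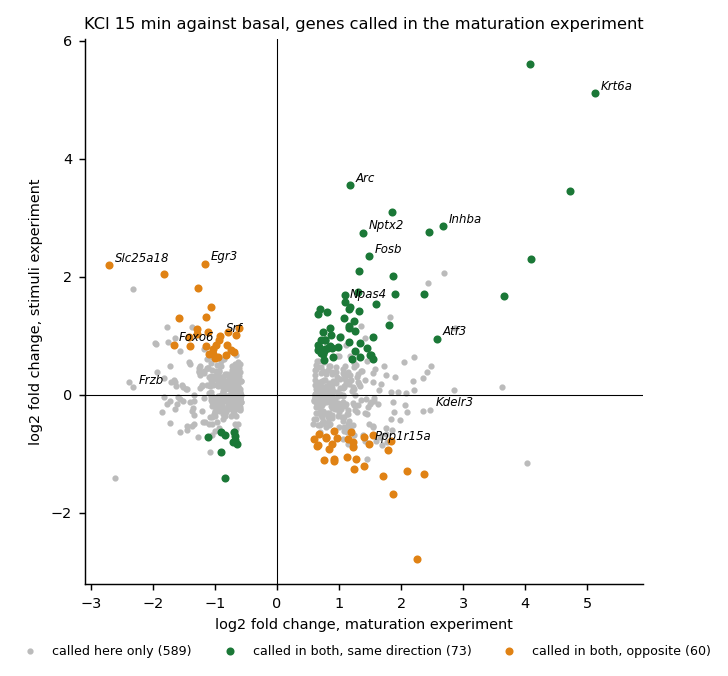
Log2 fold change with 15 min of KCl at 21DIV in the stimuli experiment (vertical axis) against the maturation experiment (horizontal axis) for the 722 genes called in the maturation experiment and tested in both. Genes called in both are green where the direction is the same (73) and orange where it is opposite (60), and the 589 gray genes were called in the maturation experiment alone.

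Markers of cell types moved in part with these results. Excitatory and pan-neuronal markers summed to 8432, 10570 and 11790 CPM in basal samples and 7290, 7312 and 7734 CPM with KCl. The groups were separate, 4 of 12 markers fell (Camk2a, Nrgn, Rbfox3 and Tbr1) and 1 rose (Slc17a6, a vesicular glutamate transporter), and the median was -0.41. Of all genes tested, 3.02% fell and 3.21% rose. Without basal replicate 2 the falls were 2, and without basal replicate 3 there was 1 fall and no rise. Inhibitory neuron markers held no call among 12, with sums from 3667 to 3922 CPM basal and from 3469 to 3717 CPM with KCl. Of 18 astrocyte markers 2 rose (Ntsr2 and Fgfr3) and 1 fell (Slc25a18), and their sums overlapped, from 8690 to 9533 CPM and from 7871 to 9006 CPM. Neither astrocyte rise was called without basal replicate 2 or 3 or KCl replicate 1 or 2. Of 12 tested oligodendrocyte lineage markers 1 fell (Olig1), and their sums, from 2539 to 3363 CPM basal and from 2050 to 2280 CPM with KCl, did not overlap. In the stimuli experiment no marker of these lists fell. There 3 of 12 excitatory and pan-neuronal, 3 of 11 inhibitory, 7 of 18 astrocyte and 4 of 12 oligodendrocyte lineage markers rose. Nrgn, Slc25a18 and Olig1, lower here, were among those rises. Of all genes tested there 4.52% rose and 2.69% fell. The sums of other types were small. They lay at most at 26.4 CPM for microglia (20.6 to 26.4 CPM with KCl, 12.2 to 16.6 CPM basal) and at 19.0 CPM for endothelial and mural cells (8.58 to 9.61 CPM with KCl, 11.1 to 19.0 CPM basal), 2 types whose groups were also separate. Fibroblast and meningeal markers summed to between 152 and 285 CPM over the 6 samples. Most of that sum in each sample was Pdgfra (87.9 to 253 CPM), which is also in the oligodendrocyte lineage list. Choroid plexus markers summed to between 9.16 and 22.4 CPM apart from 144.5 CPM in KCl replicate 3. No listed marker with a matched entry was at 0 in all 6 samples, and Tmem119 of the microglia list and Cldn5 of the endothelial list had no such entry. In bulk RNA fewer cells of a type and less RNA per cell cannot be told apart, and the part of these shifts in the falls of neuronal and calcium signaling genes was not tested.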

How the data were processed

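Cultured neurons were profiled with CEL-Seq2, a 3′ RNA-seq method with molecular identifiers, whose collapsing is not stated. The authors used STAR and the mm10 build for alignment and ESAT for counting, and deposited counts per RefSeq transcript. These counts were used as deposited, with the transcript of the highest total standing for its gene. Entries that could not be matched to a gene held 18.1 to 18.8% of counts in the 6 samples and were left out. A gene was kept where 2 or more samples exceeded 5 CPM, libraries were scaled by TMM, and edgeR 4.0.16 (R 4.3.3) fitted its quasi-likelihood test to all 28 samples of the maturation experiment, with 1 group per condition. The stimuli experiment was fitted separately. A call needed a Benjamini-Hochberg adjusted p under 0.05 and at least a 1.5-fold change, except for the stage difference, which needed the adjusted p alone. Genes were named as members of gene lists, as the 12 largest rises and falls or the 5 of lowest p in each direction (called, mean log2 CPM at least 3, groups separate), and as the 3 largest differences each way for the stage, time and 4APBic comparisons. The members and lists were chosen with earlier results of these data known. Alternatives were edgeR's likelihood ratio test, DESeq2 1.42.0, RLE factors, other filters, thinned counts, a replicate block, summed transcripts, fits of fewer samples and each sample left out. Depth limits the precision, and it ranged from 4030649 to 14012872 counts.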

Additional observations from a re-analysis of the deposited data

Results flagged for a closer look

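The 15 min KCl response was compared between 21DIV and 7DIV by a test of the difference itself, and 35 of the 73 named genes tested passed an adjusted p under 0.05 (edgeR's quasi-likelihood test, difference of log2 fold changes, 21DIV minus 7DIV). Of all genes tested, 2.03% passed. The 35 were 20 genes that had risen and 15 that had fallen at 21DIV, and all 73 had been called for such a change, which is part of the difference, so their share is no independent evidence. Over all genes the number that passed fell from 238 to 64 without basal replicate 2 of 21DIV, to 94 without basal replicate 3 and to 81 with the replicate number as a block. No explanation for the differences was tested. The values are differences on the log2 scale and come from 3 samples in each of the 4 groups.

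Among IEG transcription factors the difference was 1.58 for Fos, 2.54 for Fosb, 1.79 for Jun, 2.38 for Maff and 1.81 for Nfil3. Among effectors it was 2.02 for Gadd45g, 1.55 for Ppp1r15a and 1.54 for Rgs2. Among late response genes it was 1.56 for Nptx2, 1.34 for Scg2 and 0.94 for Vgf. Differences above 0 were found also for Nupr1 (3.71), Acan (2.75), Cartpt (2.41), C1ql2 (2.36) and Pdlim1 (2.21). Fndc9 (2.13), Slc3a2 (1.46), Fam162a (1.26) and Slc25a1 (1.11) had such differences too. For Nupr1 the estimated fall at 7DIV, which was not called, was larger in size than its rise at 21DIV.

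Differences below 0 were found for the calcium transducers Camk4 (-1.16), Camkk2 (-1.02) and Ppp3ca (-0.74). They were found also for Frzb (-2.64), Wnt4 (-2.60), Gpr12 (-2.24), Kcnk9 (-2.11), Rasgrf2 (-2.06), Fam13b (-2.05), Ypel1 (-1.95), Foxo6 (-1.76), Enc1 (-1.59), Cdk14 (-1.15), Miat (-1.15) and Gprin1 (-0.83).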

How the results depend on the processing

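For KCl against basal at 21DIV, 732 genes were called, 479 when all transcripts of a gene were summed, 468 when only the 6 compared samples were fitted, and 289 to 1105 when 1 sample was left out. Other tools, filters and scalings gave 545 to 911. The number of genes whose response differed between stages was 238, against 426 with the likelihood ratio test, 394 with DESeq2, 492 with no filter on low counts, 146 with summed transcripts and 64 to 567 with 1 sample left out. For 180 against 15 min it was 106, against 242 with the likelihood ratio test, 200 with DESeq2, 327 with no filter, 43 with summed transcripts, 5 with the compared samples only and 25 to 259 with 1 sample left out. For KCl against 4APBic it was 642, against 333 with the compared samples only and 132 to 694 with 1 sample left out. For the stimuli experiment it was 868, against 504 with counts thinned to the smallest library, 575 with summed transcripts and 340 to 879 with 1 sample left out. The cause was not tested. No called gene among those named reversed under any alternative, whereas among those not called Nr4a1 lay between -0.03 and 0.40 and Hspa1b between -0.08 and 0.38, and 1 of the 732 calls reversed with summed transcripts. With no filter the median log2 fold change of all genes moved to 0.13 for KCl against basal and to 0.21 for KCl against 4APBic.

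With the replicate number as a block, 656 genes were called for KCl against basal, 81 for the stage difference, 87 for 180 against 15 min, 553 for KCl against 4APBic and 567 for the stimuli experiment. Deviations of same-numbered basal and KCl samples correlated at 0.0995, -0.00428 and 0.0871, and 1 of the 3 KCl samples correlated best with its own number, so the numbers were not taken to pair the samples. The smallest of the 6 libraries held 4030649 counts, which limits the precision of low genes. The span of the counted transcript, in place of that of the gene, was not run, because too few transcripts could be matched.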

Other observations

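Genes of 2 further lists, of stress and metabolic genes, were looked at in the maturation experiment after 15 min of KCl. Both lists were put together after the values were seen, so their counts are descriptions with no test. Of 26 genes known to be raised by low oxygen or to encode glycolytic enzymes, 14 rose and none fell. Of all genes tested, 3.21% rose and 3.02% fell. Among the 26, 25 had a log2 fold change above 0, and the median was 0.65. Adm, which encodes the vasodilator adrenomedullin, had 26.1, 4.47 and 6.64 CPM in basal samples and 23.6, 61.5 and 47.7 CPM with KCl, so that basal replicate 1 was within the KCl range. The glucose transporter Slc2a1 had 38.4, 51.7 and 61.9 CPM against 118, 108 and 93.6 CPM, with separate groups (log2 fold change 1.07). Hexokinase 2, Hk2, had 5.88, 3.22 and 4.65 CPM against 10.3, 15.7 and 17.97 CPM (log2 fold change 1.66). In the stimuli experiment 1 of the 26 rose and 3 fell, against 4.52% and 2.69% of all genes tested there, with a median of -0.04. Ndrg1, which rose by 1.39 here, had a log2 fold change of -1.20 there.

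Of 21 genes of the amino acid and unfolded protein stress responses, 10 rose and none fell, against 3.21% and 3.02% of all genes tested. All 21 had a log2 fold change above 0, and the median was 0.75. Of the 10, Atf3, Ppp1r15a and Hspa5 are also in the lists of IEG factors, rapid effectors and chaperones. Ddit3, a stress transcription factor also known as CHOP, had 32.5, 15.6 and 18.6 CPM in basal samples and 67.5, 49.8 and 57.1 CPM with KCl (log2 fold change 1.40). Slc7a5, the partner of Slc3a2 in a transporter of large amino acids, had 50.1, 27.2 and 41.05 CPM against 116, 114 and 106 CPM (log2 fold change 1.5). Both had separate groups. In the stimuli experiment 2 of the 20 tested members rose and 2 fell, against 4.52% and 2.69% of all genes tested there. The median there was 0.18, and Ddit3 had a log2 fold change of -0.71.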
